A study of Mus musculus with 10 samples.

Results

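The 39 genes described here encode the proton pump of the lysosome (the vacuolar ATPase, or V-ATPase), lysosomal proteases, glycosidases and lipid-handling proteins, lysosomal membrane proteins and the transcription factor TFEB. They were chosen by symbol, and all 39 were found among the 27343 genes of the count table for whole hippocampus of wild-type male C57BL/6J mice, 2 months old. The Visudyne group received verteporfin for injection (Visudyne), a photosensitizer, into the cisterna magna to ablate meningeal lymphatic vessels, and the vehicle group received vehicle by the same route. The protocol, given alike for both groups, continues with 689 nm red light through the intact skull. Sample titles name the maze for both groups, while the treatment label names it for Visudyne alone. The procedure was done again after 2 weeks, the Morris water maze followed a further 2 weeks later, and hippocampi were taken 3 days after the maze. There were 5 Visudyne libraries (Visudyne 1 to 5) and 5 vehicle libraries (vehicle 6 to 10), with total counts of 34548474 to 36956138 in Visudyne and 24752362 to 41073906 in vehicle. The ablation itself was not measured in these libraries. All 9 markers of neurons and of hippocampal pyramidal and granule neurons that were examined, among them Snap25, Prox1 and Neurod6, had counts in every library.

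The V-ATPase is a rotary motor that spends ATP to pump protons into organelles. Its cytosolic V1 sector hydrolyses ATP, its membrane V0 sector carries the protons, and the acid it makes activates the hydrolases that digest proteins, glycans and lipids delivered by endocytosis and autophagy. Neurons also use the pump to fill synaptic vesicles with transmitter, and microglia are rich in cathepsins. TFEB drives many of these genes in human and mouse cells through a short promoter element, the CLEAR element, which is built around the letters CACGTG. Inherited loss of single hydrolases or of NPC1, NPC2, CLN3 or progranulin causes lysosomal storage disease in humans.

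The promoters of the genes were searched for that element, to show what they share in sequence. RefSeq promoters on GRCm38.p6, each covering 250 bases before and 50 after an annotated start, were listed for 32 of the 39 genes. The letters CACGTG, which read the same on both strands, occurred for 12 of the 32 (37.5%), against 8.09% of all 27025 genes with a listed promoter. The longer TCACGTGA, which contains the shorter motif, occurred for 7 of 32 (21.9%), against 1.12%. The windows below show the 7 genes with TCACGTGA, and then Lamp1 for its repeats and the other genes with CACGTG that were called lower further on, read 5′ to 3′ on the strand of the gene with each CACGTG in capitals. Those of Ctsa and Cln3 belong to an alternative listed start.
Atp6v0d1 (chr8:105566050-105566079, minus strand): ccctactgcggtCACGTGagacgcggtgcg
Atp6v1a (chr16:44139373-44139402, minus strand): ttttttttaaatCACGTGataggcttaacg
Ctsa (chr2:164833749-164833778, plus strand): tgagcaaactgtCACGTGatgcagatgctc
Ctsd (chr7:142387908-142387937, minus strand): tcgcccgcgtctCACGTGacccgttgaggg
Gla (chrX:134601215-134601244, minus strand): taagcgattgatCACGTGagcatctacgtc
Cln3 (chr7:126583340-126583369, minus strand): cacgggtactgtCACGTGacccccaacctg
Mcoln1 (chr8:3500462-3500491, plus strand): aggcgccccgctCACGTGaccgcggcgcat
Lamp1 (chr8:13159096-13159155, plus strand): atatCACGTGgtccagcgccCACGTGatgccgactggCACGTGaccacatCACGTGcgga
Atp6v0b (chr4:117887335-117887374, minus strand): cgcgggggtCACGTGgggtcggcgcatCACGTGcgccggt
Ctsf (chr19:4855074-4855103, plus strand): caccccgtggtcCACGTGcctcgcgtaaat
Lamp1 held 4 copies within 61 bases of its start, and Atp6v0b held 2. Mcoln1, Ctsd and Cln3 each had a further CACGTG outside the window shown, at -71, -245 and -149 from a listed start. The remaining genes with CACGTG were Ctsl and Gaa. A match describes the letters and does not show that TFEB binds there. Of the 12 genes with CACGTG, 4 were called lower and 0 higher in the comparison below, and of the 19 tested genes whose listed promoter lacks it, 3 were called lower and 2 higher, where 11.5% and 8.98% of all tested genes were called. Their median log2 fold changes were -0.31 and -0.11, at median transcript GC contents of 52.5% and 51.3%. With the trend of each library with GC content removed these medians were -0.14 and -0.075.

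Of the 38 genes tested, 7 were lower and 3 were higher in Visudyne hippocampus, and 28 were not called. A gene was called when its adjusted p was under 0.05 by edgeR's quasi-likelihood test, adjusted over all 15938 genes tested. The 7 called lower were the pump subunits Atp6v1e1, Atp6v0d1 and Atp6v0b, the proteases Ctsa and Ctsf, the saposin precursor Psap and the cholesterol carrier Npc2. The 3 called higher were the pump subunit Atp6v1h, the pump's accessory protein Atp6ap2 and the membrane protein Lamp2. Over all genes tested, 11.5% were called lower and 8.98% higher. Among the lysosomal genes the shares were 18.4% and 7.89%, so the share called higher lay near the background. Their median log2 fold change (Visudyne over vehicle) was -0.15, against 0.01 over all tested genes, and 27 of 38 (71.1%) were below 0, against 48.9%. In bulk tissue, fewer cells of a type and less RNA per cell cannot be told apart. At an unadjusted p under 0.05 there were 22 of 38 (57.9%), against 39.8% of all tested genes. In the 10 fits that leave out 1 library, Atp6v0d1 and Atp6v1e1 were called 7 times, Ctsf and Lamp2 5 times and the other 6 less often. No lysosomal gene was called by edgeR without Visudyne 3, vehicle 6 or vehicle 9, where 17, 16 and 16 of 38 had an unadjusted p under 0.05. Over all genes tested in those fits, 5332 of 16149, 5134 of 16068 and 5281 of 16089 had one. With 1 surrogate variable in the model 0 of the 38 were called by edgeR, where 6 had an unadjusted p under 0.05. Over all tested genes 0.00627% were called higher and 0% lower, and 2548 of 15938 had an unadjusted p under 0.05. With library sizes taken as plain total counts, 18 were called lower (24.5% over all tested genes) and 0 higher (1.23%), and the median of all tested genes was then -0.19. DESeq2 called 9 lower (15.2%) and 5 higher (12.5%).

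**Figure D1:**
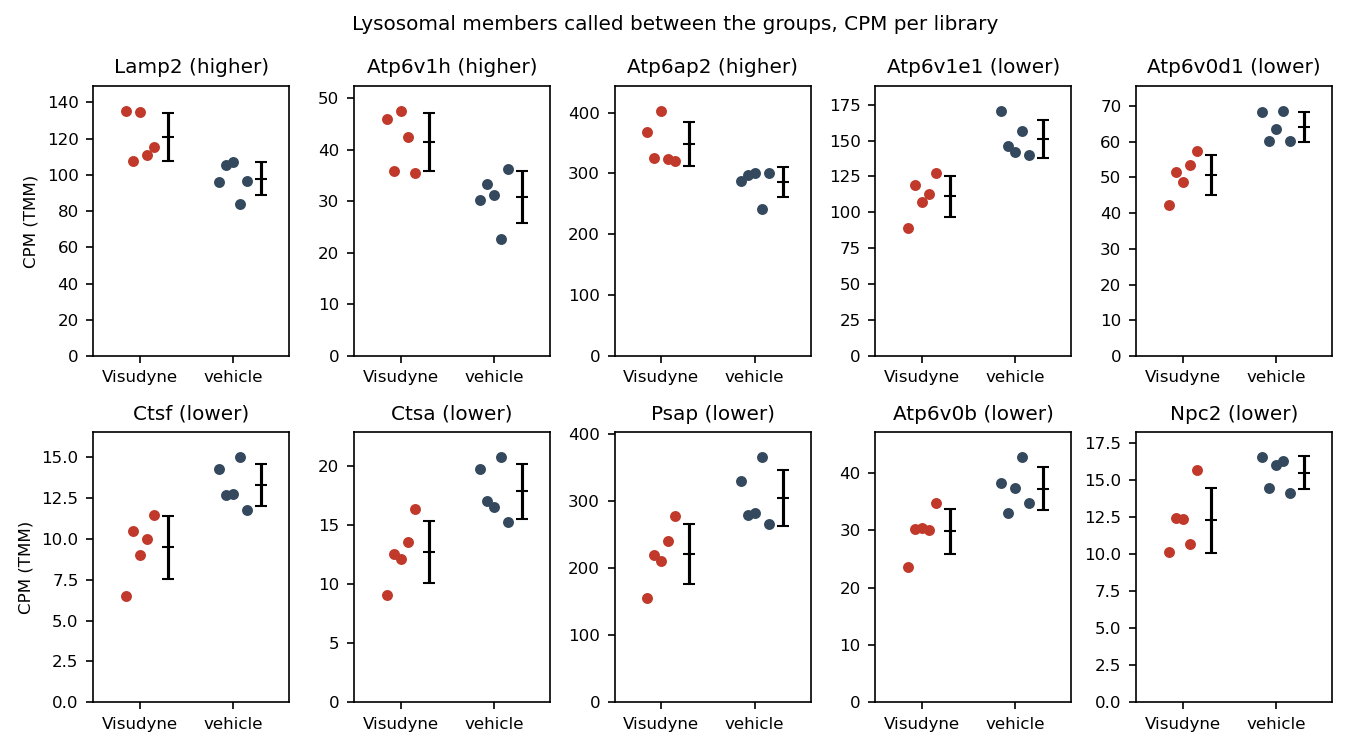
CPM of the 10 genes called between the groups, 1 point per library, 5 per group, with the mean and its SD as a black bar. For Atp6v1e1 the Visudyne libraries lie between 88.8 and 127 CPM and the vehicle libraries between 139.6 and 171 CPM, while for Psap and Npc2 the groups overlap.

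The V0 sector carries the proton path, and all of its 6 genes had log2 fold changes below 0 with TMM, although Atp6v0b and Atp6v0c came out above 0 with the GC trend removed. With each library's GC slope in the model all but Atp6v0d1 were above 0, with a median of 0.087, against -0.29 with TMM alone. Atp6v0d1, whose product joins the V0 ring to the central stalk, had 42.3, 51.6, 48.8, 53.4 and 57.3 CPM in Visudyne 1 to 5, against 68.3, 60.2, 63.5, 68.7 and 60.1 CPM in vehicle 6 to 10. CPM are counts scaled to equal library sizes with TMM factors. Every Visudyne library lay under every vehicle library. The fall was 0.34 on the log2 scale (log2 fold change -0.34 with SE 0.08, and edgeR's adjusted p = 0.026; GRCm38 chromosome 8, 105524465 to 105566047). Atp6v0b encodes a proteolipid of the rotating ring. It had 23.7, 30.2, 30.5, 30 and 34.7 CPM in Visudyne 1 to 5, against 38.3, 33.0, 37.3, 42.8 and 34.8 CPM in vehicle 6 to 10. Visudyne 5 lay above vehicle 7, and the other Visudyne libraries lay under every vehicle library. Its log2 fold change was -0.32 (SE 0.097, edgeR's adjusted p = 0.04).

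The widest range of log2 CPM among the 38 genes was that of Atp6v0e2, a small V0 subunit gene with much expression in brain. It had 1.73, 5.25, 7.6, 9.43 and 11.7 CPM in Visudyne 1 to 5, against 19.1, 12.2, 10.6, 24.4 and 11.1 CPM in vehicle 6 to 10. Its log2 fold change of -1.11 had an SE of 0.39 and was not called (adjusted p = 0.058 by edgeR), with Visudyne 5 inside the vehicle range. Atp6v0c, the main proteolipid of the ring, lay between 48.5 and 61.1 CPM in Visudyne and between 45.1 and 60.8 CPM in vehicle (log2 fold change -0.03, SE 0.086). The proton-channel subunits Atp6v0a1, the form common in nerve terminals, and Atp6v0a2, a form known from Golgi and endosomes, had log2 fold changes of -0.09 (SE 0.069) and -0.26 (SE 0.11). Neither was called. The distinct a4 and d2 forms known from kidney and osteoclasts were close to absent, with Atp6v0a4 and Atp6v0d2 at or under 0.183 CPM in every library.

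In the V1 sector, which hydrolyses ATP, the 9 genes lay on both sides of 0. Atp6v1e1 encodes a subunit of the peripheral stalk that holds the motor still, and it had the smallest p of the 39 genes. It had 88.8, 119, 107, 113 and 127 CPM in Visudyne 1 to 5, against 171, 146, 142, 157 and 139.6 CPM in vehicle 6 to 10. The groups did not overlap, and the level in Visudyne was 0.735 of that in vehicle (log2 fold change -0.44 with SE 0.093, and edgeR's adjusted p = 0.023; chromosome 6, 120794305 to 120822793). Its testis form Atp6v1e2 was at or under 0.0394 CPM throughout. Over the 10 libraries the genes outside the set with the closest pattern to Atp6v1e1, among 6911 with a mean of at least 10 CPM, were Mapk14, Rpl4 and Acin1. Their Pearson coefficients of 0.988, 0.988 and 0.986 describe libraries that share the group difference and the library differences given further on.

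Atp6v1h, the subunit that regulates coupling of ATP hydrolysis to pumping, was called higher. It had 46.1, 35.8, 47.6, 42.5 and 35.4 CPM in Visudyne 1 to 5, against 30.3, 33.4, 31.2, 22.8 and 36.2 CPM in vehicle 6 to 10. Visudyne 2 and 5 lay under vehicle 10, and vehicle 9 was the lowest library (log2 fold change 0.43 with SE 0.12, and edgeR's adjusted p = 0.034; chromosome 1, 5070018 to 5162529). The catalytic A subunit gene Atp6v1a had 825, 810.4, 806, 775 and 710.0 CPM in Visudyne 1 to 5, against 728, 687, 705, 607 and 742 CPM in vehicle 6 to 10. Visudyne 5 lay inside the vehicle range, and the gene was not called (log2 fold change 0.18 with SE 0.068, and edgeR's adjusted p = 0.075). The stalk subunit Atp6v1g1 was not called either, although its groups did not overlap, at 52.2 to 61.0 CPM in Visudyne, against 44.5 to 52.0 CPM in vehicle (log2 fold change 0.18 with SE 0.063, and edgeR's adjusted p = 0.056). Its neuronal form Atp6v1g2 lay at 147 to 169 CPM in Visudyne, against 150.2 to 182 CPM in vehicle (log2 fold change -0.06, SE 0.063). Of the remaining V1 genes, the nucleotide-binding Atp6v1b2 had a log2 fold change of -0.05, the peripheral Atp6v1c1 one of 0.06, and the rotor subunits Atp6v1d and Atp6v1f had 0.02 and -0.25. None of these 4 was called.

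The pump's accessory proteins differed from each other. Atp6ap2, also called the prorenin receptor and needed for assembly of V0, had 368, 326, 403, 324 and 320.5 CPM in Visudyne 1 to 5, against 287, 297, 300.1, 242 and 301 CPM in vehicle 6 to 10. All Visudyne libraries lay above all vehicle libraries (log2 fold change 0.29 with SE 0.084, and edgeR's adjusted p = 0.036; chromosome X, 12587801 to 12617049). Atp6ap1 lay at 141 to 161 CPM in Visudyne, against 157 to 173 CPM in vehicle, and was not called (log2 fold change -0.11 with SE 0.056, and edgeR's adjusted p = 0.17). Groups that do not overlap were found for 3 genes in the lower direction (Atp6v0d1, Atp6v1e1 and Ctsf), or 7.89% of 38, against 7.22% of all tested genes. In the higher direction there were also 3 (Atp6v1g1, Atp6ap2 and Lamp2), or 7.89%, against 5.25%.

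**Figure D2:**
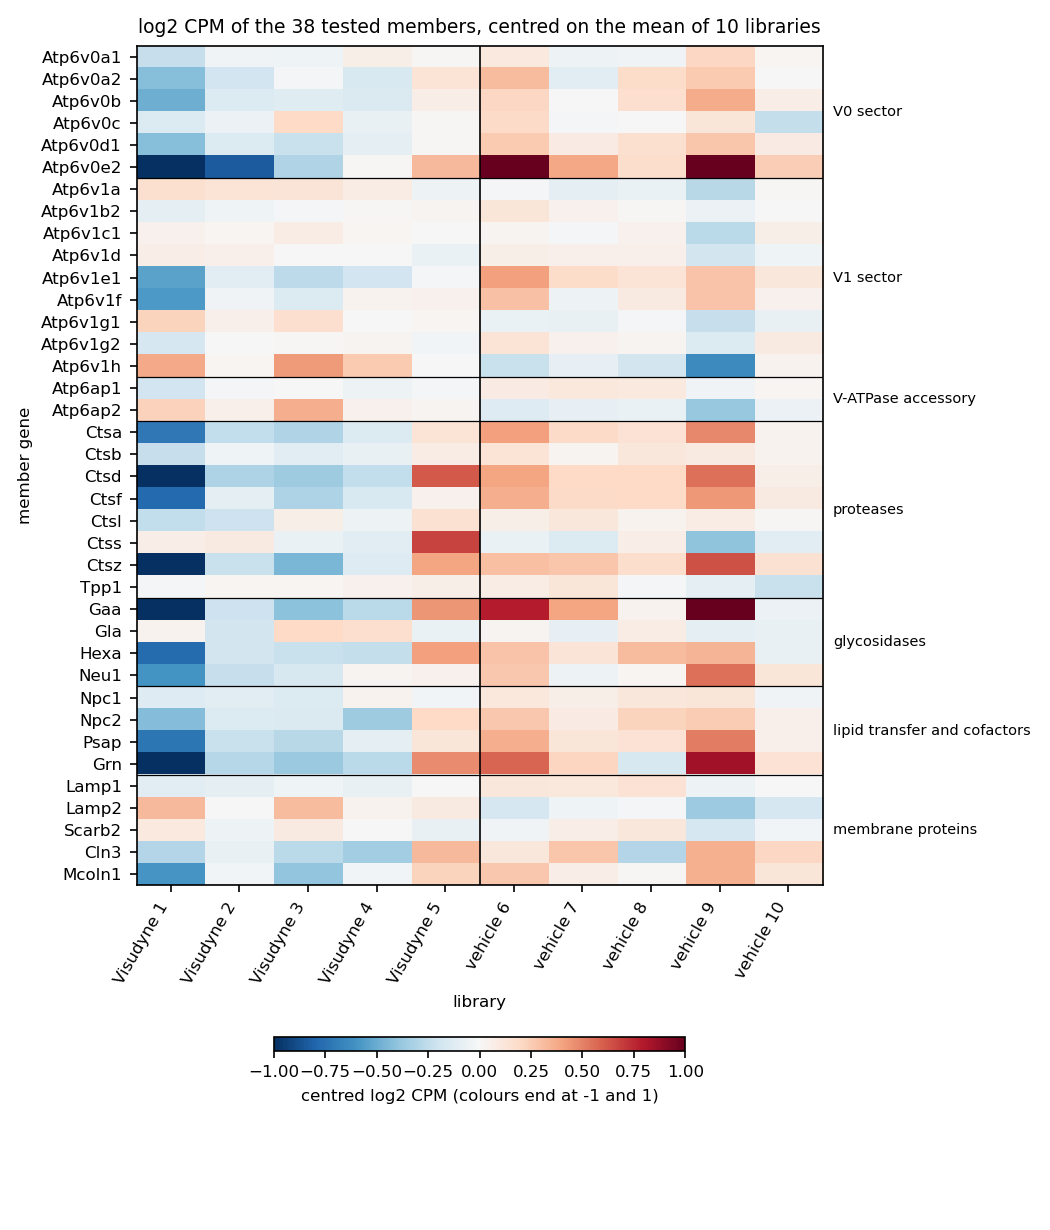
Log2 CPM of the 38 tested genes in each of the 10 libraries, centred per gene on the mean of the 10 and grouped by role, with Visudyne libraries on the left and vehicle libraries on the right. Visudyne 1 is the lowest library for most hydrolases, vehicle 9 stands opposite it, and Visudyne 5 is high for Ctsd and Ctss.

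Among the 8 proteases 2 were called, both lower. Ctsa encodes cathepsin A, a serine carboxypeptidase that also protects the sialidase NEU1. It had 9.07, 12.6, 12.1, 13.6 and 16.4 CPM in Visudyne 1 to 5, against 19.8, 17.1, 16.5, 20.8 and 15.2 CPM in vehicle 6 to 10. Visudyne 5 lay above vehicle 10, and the other Visudyne libraries lay under every vehicle library (log2 fold change -0.49 with SE 0.14, and edgeR's adjusted p = 0.035). Ctsf, the cysteine protease cathepsin F, had 6.47, 10.4, 8.97, 9.99 and 11.5 CPM in Visudyne 1 to 5, against 14.2, 12.7, 12.7, 15 and 11.8 CPM in vehicle 6 to 10. Its groups did not overlap, by a narrow gap between Visudyne 5 and vehicle 10 (log2 fold change -0.49 with SE 0.13, and edgeR's adjusted p = 0.032).

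The aspartic protease Ctsd varied widely in Visudyne, with 30.6, 53.0, 51.2, 55.4 and 100.4 CPM in Visudyne 1 to 5, against 86.0, 75.1, 75.4, 96.0 and 68.1 CPM in vehicle 6 to 10. Visudyne 1 to 4 lay under every vehicle library and Visudyne 5 above every one, and the gene was not called (log2 fold change -0.46 with SE 0.24, and edgeR's adjusted p = 0.16). Without Visudyne 5 it was called lower at -0.76 (adjusted p = 0.011 by edgeR). Ctss, the cathepsin S gene of microglia and macrophages, had 45.5, 46.2, 41.5, 40.2 and 69.1 CPM in Visudyne 1 to 5, against 41.3, 39.5, 45.3, 32.8 and 40.0 CPM in vehicle 6 to 10. Visudyne 5 stood far above the rest, and Ctss was not called (log2 fold change 0.29 with SE 0.14, and edgeR's adjusted p = 0.15). Ctsz, a carboxypeptidase with low counts here, lay at 1.79 to 5.14 CPM in Visudyne, against 4.33 to 6.05 CPM in vehicle (log2 fold change -0.54 with SE 0.22, and edgeR's adjusted p = 0.09). The cysteine proteases Ctsb and Ctsl had log2 fold changes of -0.15 (SE 0.061) and -0.11 (SE 0.075), and Tpp1, a tripeptidyl peptidase, had one of 0.05 (SE 0.067). None of the 3 was called.

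Visudyne 5 also stood high for microglial markers. The summed level of 12 microglial markers was 267 CPM in Visudyne 5, 216 to 237 CPM in the other Visudyne libraries and 198 to 221 CPM in vehicle. Of the 12, 5 had log2 fold changes above 0 and 7 below. Of these genes 2 were called higher and 1 lower, and none was at 0 in every library. The summed level of 5 border macrophage markers was 4.01 to 6.62 CPM in Visudyne, against 4.89 to 8.01 CPM in vehicle. The part of these cells in the protease values was not tested.

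The 4 glycosidases were not called. Gaa, which digests glycogen, had 2.76, 8.53, 7.41, 8.19 and 13.4 CPM in Visudyne 1 to 5, against 17, 13, 10.1, 21.7 and 9.45 CPM in vehicle 6 to 10. Visudyne 5 lay inside the vehicle range and the other Visudyne libraries lay under it (log2 fold change -0.82 with SE 0.33, and edgeR's adjusted p = 0.088). Hexa, needed to degrade ganglioside GM2, lay at 9.86 to 22.3 CPM in Visudyne, against 16 to 21.2 CPM in vehicle, with Visudyne 5 the highest of the 10 (log2 fold change -0.36 with SE 0.17, and edgeR's adjusted p = 0.14). The sialidase Neu1 had a log2 fold change of -0.36 (SE 0.14, edgeR's adjusted p = 0.081), and the galactosidase Gla one of 0.07 (SE 0.085).

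Of the 4 genes of lipid transfer and hydrolase cofactors 2 were called lower. Psap encodes the precursor of the saposins, which present sphingolipids to their hydrolases. It had 155, 219.5, 211, 241 and 278 CPM in Visudyne 1 to 5, against 329.9, 278, 282, 365 and 265 CPM in vehicle 6 to 10. Visudyne 5 lay within the vehicle range and the others lay under it (log2 fold change -0.46 with SE 0.14, and edgeR's adjusted p = 0.038; chromosome 10, 60277627 to 60302597). Npc2, which hands cholesterol to NPC1, had 10.1, 12.5, 12.4, 10.7 and 15.7 CPM in Visudyne 1 to 5, against 16.6, 14.5, 16, 16.3 and 14.2 CPM in vehicle 6 to 10. Visudyne 1 to 4 lay under every vehicle library, and it was the call nearest to the threshold (log2 fold change -0.34 with SE 0.11, and edgeR's adjusted p = 0.049). Npc1, the membrane cholesterol exporter, lay at 40.6 to 45.8 CPM in Visudyne, against 43.6 to 48.5 CPM in vehicle (log2 fold change -0.15 with SE 0.055, and edgeR's adjusted p = 0.074). Grn, the progranulin gene, had 2.32 to 7.28 CPM in Visudyne, against 4.69 to 9.36 CPM in vehicle (log2 fold change -0.59 with SE 0.26, and edgeR's adjusted p = 0.11).

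Of the 5 membrane protein genes, Lamp2 was called higher. LAMP2 coats the inner face of the lysosomal membrane and, as one isoform, serves chaperone-mediated autophagy. Lamp2 had 136, 108, 135, 111 and 115 CPM in Visudyne 1 to 5, against 96.3, 105, 107, 84.2 and 96.4 CPM in vehicle 6 to 10. The groups did not overlap, with a gap of under 1 CPM between Visudyne 2 and vehicle 8 (log2 fold change 0.30 with SE 0.086, and edgeR's adjusted p = 0.034; chromosome X, 38401357 to 38456454). Its relative Lamp1 lay at 133 to 144 CPM in Visudyne, against 139.6 to 159.6 CPM in vehicle, and was not called (log2 fold change -0.13 with SE 0.054, and edgeR's adjusted p = 0.094). Scarb2, an abundant lysosomal membrane protein gene, had a log2 fold change of 0.02 (SE 0.065). The calcium channel Mcoln1 had one of -0.30 (SE 0.14, edgeR's adjusted p = 0.13) and Cln3 one of -0.25 (SE 0.18). Tfeb did not pass the filter on low counts. It had 2, 10, 4, 5 and 4 counts in Visudyne 1 to 5, against 17, 6, 12, 11 and 3 counts in vehicle 6 to 10, and the groups overlapped.

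Levels of different genes can be set side by side only per length. Per kilobase of the annotated principal transcript, Atp6v1a was the most abundant of the 39 at 193 ± 11.3 CPM per kilobase in Visudyne and 171 ± 13 in vehicle (SD, n = 5 each). The next 3 by vehicle level were Atp6v1b2, Atp6ap2 and Atp6v1c1. They stood at 128 ± 4.35, 149.9 ± 15.7 and 128 ± 2.51 CPM per kilobase in Visudyne, against 132 ± 6.02, 123 ± 10.8 and 123 ± 10.9 in vehicle, so their order was not clear of the spread. Psap was the most abundant of the 39 outside the pump, at 83.1 ± 16.9 CPM per kilobase in Visudyne and 114.5 ± 15.7 in vehicle. Most hydrolases stood far lower, with Hexa at 7.57 ± 2.25 and 9.70 ± 1.11, and Gaa at 2.30 ± 1.08 and 4.07 ± 1.47 CPM per kilobase in Visudyne and vehicle. The cofactor gene Grn stood at 1.91 ± 0.762 CPM per kilobase in Visudyne and 2.88 ± 0.789 in vehicle. These lengths are annotated ones, so levels per length are approximate.

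**Figure D3:**
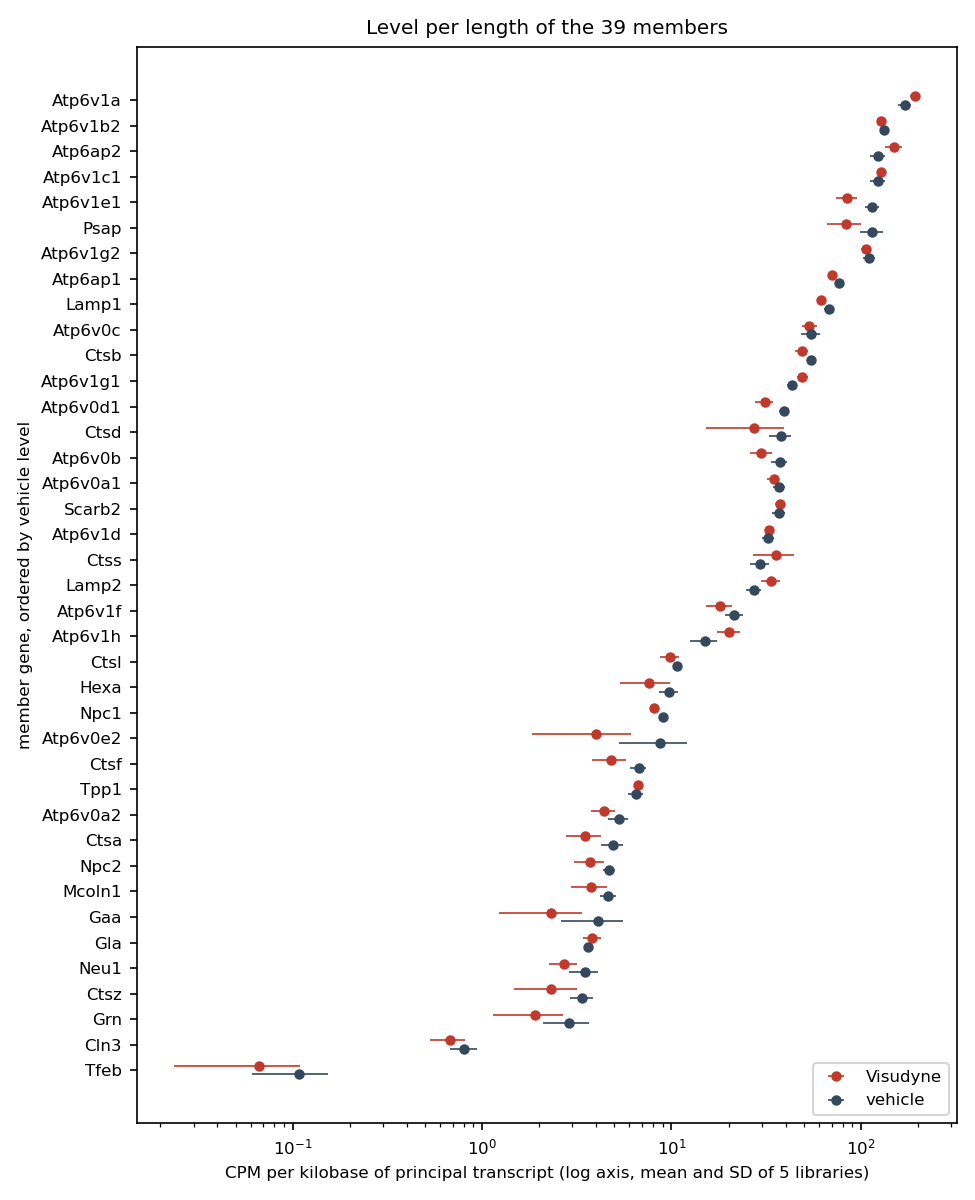
CPM per kilobase of principal transcript for all 39 genes (log axis), ordered by vehicle level, as mean and SD of 5 Visudyne and 5 vehicle libraries. The catalytic subunit gene Atp6v1a leads at 193 CPM per kilobase in Visudyne and 171 in vehicle, and Tfeb is last.

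The log2 fold changes of the genes followed the GC content of their transcripts. The 3 genes called higher had 37.6% GC (Atp6v1h), 38.7% (Lamp2) and 40.5% (Atp6ap2), while the 7 called lower had 50.3% (Atp6v1e1) to 56.6% (Ctsf). Of 7 tested genes under 45% GC 3 were called higher and 0 lower, and their median log2 fold change was 0.18, against 0.23 over all tested genes under 45%, of which 22.9% were called higher and 0.465% lower. Of 8 genes from 45% to under 50% 0 were called, with a median of 0.03. Over all tested genes of that content the median was 0.05, and 5.75% were called higher and 4.86% lower. Of 16 genes from 50% to under 55% 0 were called higher and 5 lower, with a median of -0.28. All tested genes of that content had a median of -0.17, and 1.58% were called higher and 19.2% lower. Of 7 genes at 55% or more 0 were called higher and 2 lower, with a median of -0.49. This compares with -0.43 over all tested genes of that content, of which 0.735% were called higher and 29.8% lower. Across the 38 genes, Pearson's coefficient between log2 fold change and GC content was -0.82. Across 15829 tested genes it was -0.59. Both are descriptions across genes of the same 10 libraries. The bounds of 45%, 50% and 55% were chosen after the values were seen.

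**Figure D4:**
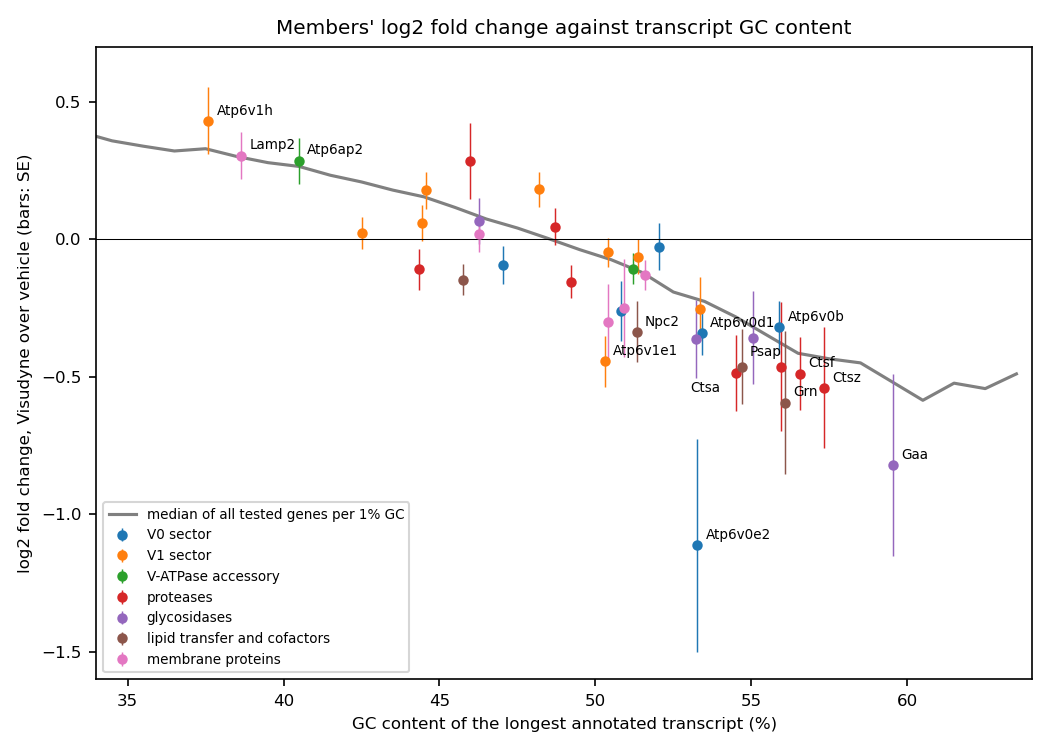
Log2 fold change (Visudyne over vehicle, bars give the SE) of the 38 tested genes against the GC content of the longest annotated transcript, coloured by role, with the median of all tested genes per 1% of GC in grey. The 3 genes called higher lie at the left under 41% GC, the lysosomal genes slope the same way as the grey line, and Atp6v0e2 and Atp6v1e1 lie under it.

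The libraries differed in the same respect. The slope of log2 CPM on GC content, per 10 percentage points and relative to the mean of the 10 libraries, was -0.51, -0.11, -0.21, -0.13 and 0.01 in Visudyne 1 to 5, against 0.28, 0.15, 0.15, 0.39 and -0.02 in vehicle 6 to 10. Only Visudyne 5 and vehicle 10 crossed over. The mean centred log2 CPM of the 38 genes was -0.39, -0.11, -0.08, -0.06 and 0.13 in Visudyne 1 to 5, against 0.19, 0.07, 0.06, 0.17 and 0.02 in vehicle 6 to 10. Visudyne 1, with the lowest slope, was the lowest library for these genes. With each library's GC trend removed these means were -0.27, -0.08, -0.04, -0.04 and 0.12 in Visudyne 1 to 5. In vehicle 6 to 10 they were then 0.13, 0.04, 0.04, 0.09 and 0.02. The part of the slope in these means was not tested. The large mitochondrial ribosomal RNA mt-Rnr2 took a share of counts of 33.6% to 39.7% in Visudyne and 32.2% to 35.7% in vehicle.

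Most calls did not outlast an allowance for GC content. When each library's loess trend with GC content was removed, 0 of the 38 genes were called higher and 2 lower. Over all tested genes 1.98% and 2.5% were called. The median log2 fold change of the 38 was -0.13 in that fit, against -0.15 with TMM alone. Over all tested genes the median with the trend removed was -0.008. In that edgeR fit 11 of the 38 had an unadjusted p under 0.05, against 4008 of all 15938 tested genes. Atp6v1e1 was called at a log2 fold change of -0.38 (adjusted p = 0.031 by edgeR), and Npc1 was called at -0.26 (adjusted p = 0.048 by edgeR). Lamp2, Atp6ap2 and Atp6v0b came to 0.01, 0.02 and 0.02, and Atp6v1h to 0.12. Ctsa, Psap, Npc2, Ctsf and Atp6v0d1 stayed below 0, at -0.22, -0.19, -0.22, -0.13 and -0.12, and were not called. With each library's GC slope in the model, 0 of 38 genes and 0 of all tested genes were called by edgeR, where 1 and 1050 had an unadjusted p under 0.05. The median of the 38 was then 0.04. Only Visudyne 5 and vehicle 10 cross in slope, so slope and group can hardly be told apart in that fit. Removing each library's loess trend likewise takes out any difference between the groups that follows GC content, whatever its source.

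**Figure D5:**
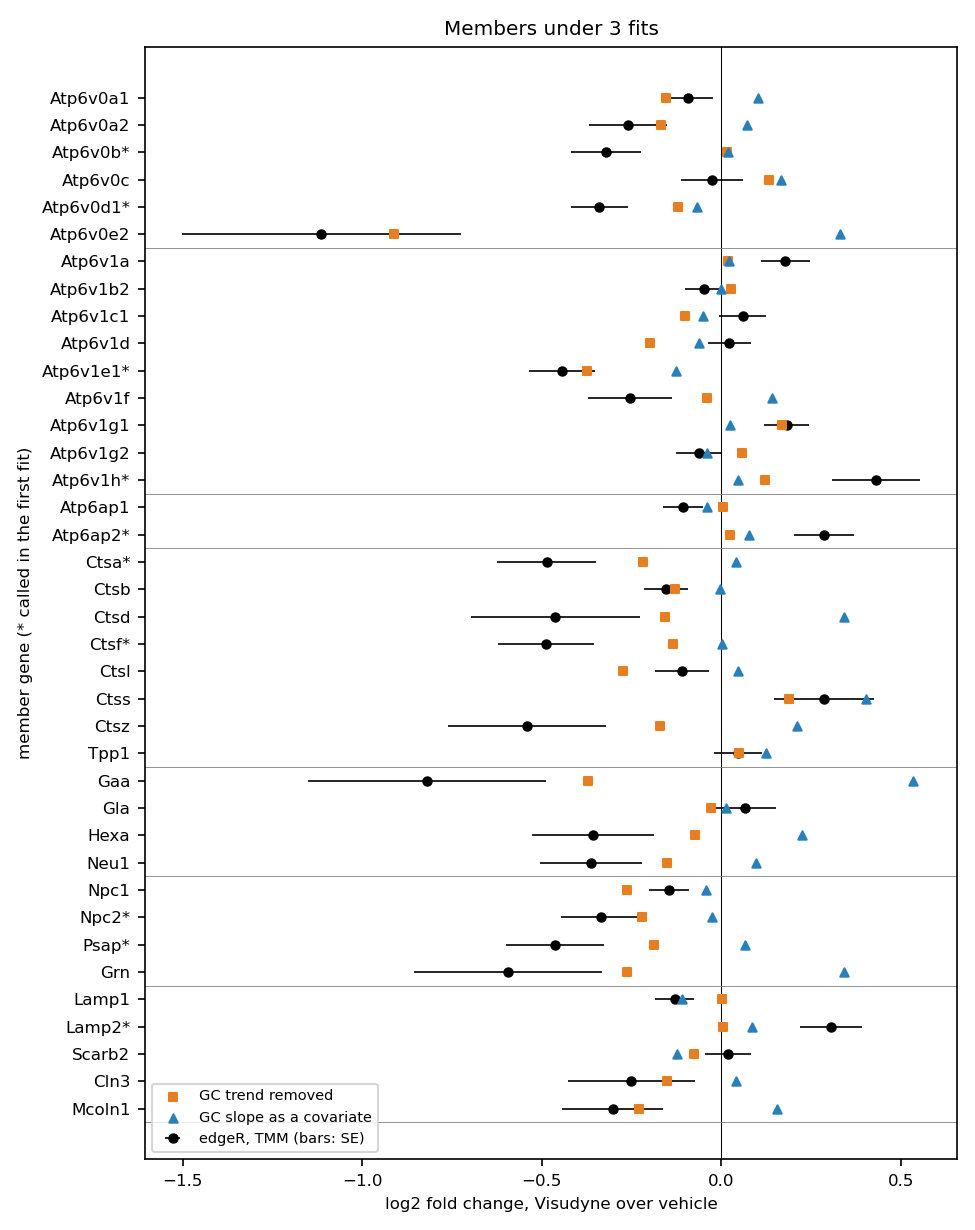
Log2 fold change (Visudyne over vehicle) of the 38 tested genes in the edgeR fit with TMM (black, bars give the SE), with each library's GC trend removed (orange squares) and with each library's GC slope in the model (blue triangles). Atp6v1e1 moves from -0.44 to -0.38 when the trend is removed, while Lamp2 moves from 0.30 to 0.01.

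Visudyne 5 differed from the other Visudyne libraries for the hydrolases. The mean centred log2 CPM of the 8 proteases was 0.27 in Visudyne 5, -0.51 to -0.11 in Visudyne 1 to 4 and 0.00 to 0.22 in vehicle. Without Visudyne 5, 17 of the 38 genes were called lower and 5 higher, where 17.9% and 13.6% of all tested genes were called. These include all 10 of the genes called with every library, and Ctsd, Ctsz, Grn, Hexa and Gaa with log2 fold changes of -0.76, -0.76, -0.85, -0.55 and -1.09. With Visudyne 5 left out and the GC trend removed, a setting chosen after seeing the data, 9 were called lower and 0 higher, where 7.22% and 4.61% of all tested genes were called. The 9 were Atp6v1e1, Npc2, Ctsa and Psap, which were also called with every library, and Atp6v1d, Ctsb, Ctsd, Ctsl and Npc1. Ctsd stood at -0.38, Ctsl at -0.36, Npc2 at -0.31 and Atp6v1e1 at -0.43 in that setting.

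Other genes of the lysosome, listed by role and not by how they moved, were also called in both directions. Of 107 tested, 11 were called higher and 18 lower, where 8.98% and 11.5% of all tested genes were called, the background for each list below as well. The median log2 fold change of the 107 was -0.11, against 0.01 over all tested genes. Of 13 further V-ATPase subunits and partners 4 were called higher and 1 lower. Ncoa7, which binds the pump, was at 77.0 ± 11.1 CPM in Visudyne, against 53.0 ± 7.44 CPM in vehicle, and Vma21, a pump assembly chaperone, at 95.2 ± 16.7 and 69.6 ± 7.29 CPM (SD, n = 5 each). The pump-associated protein genes Dmxl1, at 1.22-fold, rose, and Rnasek, at 0.731 of vehicle, fell. With the GC trend removed the log2 fold changes of these 4 were 0.26, 0.13, -0.01 and -0.06, and none was called.

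Of 30 further glycosidases, sulfatases and lipases 2 were called higher and 4 lower. The iduronate sulfatase gene Ids was at 445 ± 71.2 CPM in Visudyne, against 323 ± 19.5 CPM in vehicle (SD, n = 5 each). Ppt2, a thioesterase gene, was at 0.677 of vehicle. Of 8 other proteases Ctso was called higher at 1.21-fold and Dpp7 lower at 0.619 of vehicle. Of 26 membrane proteins and transporters 2 were called higher and 6 lower, with Lamp5 at 0.679, Tmem63a at 0.637, Slc17a5, a sialic acid exporter gene, at 1.22 and Tmem106b at 1.23 of vehicle. Of 14 sorting genes 0 were called higher and 2 lower, Gga3 at 0.768 and Ap3d1 at 0.692 of vehicle. Of 16 genes of transcriptional and nutrient control 2 were called higher and 4 lower. Among them Flcn was at 0.739, Lamtor4 at 0.579, Lamtor2 at 0.635 and the GTPase gene Rragb at 1.22 of vehicle. Of the genes called in these lists, Lamp5 alone was also called with the GC trend removed.

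Markers of neurons and of other cell types were examined in the same libraries. Sums are weighted to the most abundant genes. The 4 neuron markers summed to 4497 to 5638 CPM in Visudyne, against 3896 to 4585 CPM in vehicle. Of these, 3 had log2 fold changes above 0, with Map2 called higher at 0.35, and Rbfox3 had one of -0.33. The 5 markers of pyramidal and granule neurons summed to 641 to 1116 CPM in Visudyne, against 686 to 813 CPM in vehicle. Their log2 fold changes were above 0 for 2 and below 0 for 3, with Wfs1 called lower at -0.52. Of 7 tested oligodendrocyte markers 4 were called lower and 0 higher, with a summed level of 2180 to 2602 CPM in Visudyne, against 2258 to 3038 CPM in vehicle. The summed level of 6 choroid plexus markers was 464 CPM in Visudyne 3, 324 CPM in Visudyne 5, 30.2 to 45.1 CPM in Visudyne 1, 2 and 4, and 28.5 to 40.1 CPM in vehicle. The 6 astrocyte markers summed to 4505 to 6037 CPM in Visudyne, against 4457 to 5101 CPM in vehicle. Most of that sum was Slc1a2, at 3618 to 4989 CPM in Visudyne and 3583 to 4179 CPM in vehicle. None of the 6 was called, and 4 had log2 fold changes above 0, while Aldh1l1 and Gfap had -0.75 and -0.24. The 4 endothelial markers summed to 43.2 to 50.3 CPM in Visudyne, against 41.7 to 50.2 CPM in vehicle. The part of these cells in the lysosomal genes was not tested.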

How the data were processed

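Hippocampal total RNA of 5 Visudyne and 5 vehicle libraries was sequenced with a stranded kit, per the labels' protocols. The submitters' processing notes name FastQC, Salmon and the build mm10. The authors deposited 1 table of estimated counts per Ensembl gene as whole numbers, which were taken as rounded and used as they stand. For the annotation, the gene-level summing and filters the sources used here give nothing. Symbols, positions, lengths and GC content came from GENCODE M21 (GRCm38), which held 27053 of 27343 identifiers. Of 15938 tested genes 15829 had a GC value.

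Groups were compared in R 4.3.3 with edgeR 4.0.16 (quasi-likelihood, filterByExpr, TMM, no covariates, two-sided), with Benjamini-Hochberg adjustment over all tested genes. CPM use TMM library sizes. The standard error is the log2 fold change divided by the square root of F. Tested genes of the set had 47 to 31678 counts per library. The test was checked on simulated counts with no GC trend between libraries. It called 52 of 100 genes changed 1.5-fold, 65 of 100 changed 2-fold and 8 of 15738 unchanged genes. That check cannot show how the test behaves under the GC trend of these libraries. Same-group libraries differed by a chi-square of at least 12.3 per degree of freedom, so none was entered again. No label ties a library to a mouse of its own, so p-values measure the spread between libraries. The replicate numbers of the groups differ, so nothing pairs them. Reads of Ctsd may be shared with the overlapping Gm49369 on the same strand.

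Alternatives were other size factors and filters, DESeq2 1.42.0, limma-voom (limma 3.58.1), sva 3.50.0, GC corrections (loess span 0.3), mitochondrial genes left out and each library left out. The genes, lists and alternatives were chosen with earlier results of these data known. Genes were named as follows. Every called gene is given in every library, other lists are named by up to 4 called genes with the smallest p, and the 3 closest patterns are given for the gene with the smallest p. Some genes that this rule picked are not reported here, and they stayed in every fit and count. Ctsd, Ctss, Gaa, Atp6v1a and Atp6v0e2 are also given in every library and were chosen after their values were seen.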

Additional observations from a re-analysis of the deposited data

Results flagged for a closer look

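A library stood apart from the other 4 of its group, by Dixon's ratio at the 95% level on CPM, for 5 of the 76 groups of 5 examined (38 genes in 2 groups), and chance flags about 5% of groups. Ctss was at 69.1 CPM in Visudyne 5, against 40.2 to 46.2 CPM in the other Visudyne libraries. Atp6ap1 was at 141 CPM in Visudyne 1, against 155 to 161 CPM in the other Visudyne libraries. The other 3 concern vehicle 9, which was lowest for Atp6v1c1 at 215 CPM (256 to 269.9 CPM in the other vehicle libraries) and for Atp6ap2 at 242 CPM (287 to 301 CPM), and highest for Ctsz at 6.05 CPM (4.33 to 4.8 CPM). Vehicle 9 had the steepest positive slope on GC content, 0.39 per 10 percentage points, and Atp6v1c1 and Atp6ap2 have 44.4% and 40.5% GC and Ctsz 57.3%.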

How the results depend on the processing

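No paired analysis was possible because the groups share no replicate numbers. Leaving out 1 library gave 0 to 17 genes called lower and 0 to 5 called higher among the 38 or 39 tested, a median log2 fold change of -0.19 to -0.12, and over all genes 5 to 2873 called lower and 5 to 2174 higher. The members called were 0 without Visudyne 3, vehicle 6 or vehicle 9. DESeq2 called 9 lower and 5 higher, with 7 and 3 shared with the edgeR calls. Removing the GC trend gave 2 and 0 (over all genes 398 and 316) and a median of -0.13. Leaving out Visudyne 5 as well gave 9 and 0 (1156 and 738). Each library's GC slope in the model gave 0 and 0 (0 and 0) and a median of 0.043, and 1 surrogate variable gave 0 and 0 (0 and 1) and a median of -0.022. Total counts gave 18 and 0 (3902 and 196) and a median of -0.35, where the median of all genes was -0.19. Without a filter on low counts 818 genes were called higher over all. The settings not named here left each count within 1.5 times its value. The cause of these shifts was not tested.

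Signs turned as follows, as log2 fold changes. With total counts, Atp6v1a was at -0.029, Atp6v1c1 -0.14, Atp6v1d -0.18, Atp6v1g1 -0.025, Tpp1 -0.16, Gla -0.14 and Scarb2 -0.19. With 1 surrogate variable, Atp6v0a1 was at 0.038, Atp6v0c 0.070, Atp6v1c1 -0.012, Atp6v1d -0.044, Atp6v1f 0.0014, Ctsd 0.053, Gaa 0.043, Hexa 0.00027, Grn 0.030, Scarb2 -0.083 and Mcoln1 0.0081. With the GC trend removed, Atp6v0b was at 0.015, Atp6v0c 0.13, Atp6v1b2 0.027, Atp6v1c1 -0.10, Atp6v1d -0.20, Atp6v1g2 0.058, Atp6ap1 0.0052, Gla -0.028, Lamp1 0.0031 and Scarb2 -0.075. With each GC slope in the model, Atp6v0a1 was at 0.10, Atp6v0a2 0.072, Atp6v0b 0.018, Atp6v0c 0.17, Atp6v0e2 0.33, Atp6v1b2 0.00031, Atp6v1c1 -0.052, Atp6v1d -0.063, Atp6v1f 0.14, Ctsa 0.041, Ctsd 0.34, Ctsf 0.0020, Ctsl 0.046, Ctsz 0.21, Gaa 0.53, Hexa 0.23, Neu1 0.098, Psap 0.065, Grn 0.34, Scarb2 -0.12, Cln3 0.040 and Mcoln1 0.15. With the GC trend removed and Visudyne 5 left out, Atp6v0b was at 0.0013, Atp6v0c 0.14, Atp6v1b2 0.016, Atp6v1c1 -0.13, Atp6v1d -0.22, Atp6v1g2 0.066, Atp6ap1 0.0028, Ctss -0.0038, Gla -0.023, Lamp1 0.00027, Lamp2 -0.022 and Scarb2 -0.075. Leaving out 1 library gave -0.093 to 0.013 for Atp6v0c, -0.0033 to 0.073 for Atp6v1c1, -0.026 to 0.039 for Atp6v1d, -0.028 to 0.043 for Scarb2 and -0.0074 to 0.084 for Tpp1.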
